A study of Drosophila melanogaster with 18 samples.

Results

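Gene expression in cells treated with double-stranded RNA (dsRNA) against mts was compared directly with that in cells treated with dsRNA against IntS4, over all genes outside ribosomal RNA. Every gene entry of the count table was taken except the 138 ribosomal RNA entries, which left 17615 of 17753 entries. Of these, 8666 had enough counts to be tested, 8949 did not, and 4483 of the latter had no count in any of the 6 libraries compared. The comparison used 3 libraries of mts dsRNA and 3 of IntS4 dsRNA, out of 18 libraries in 6 groups.

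The cells were DL1, a haemocyte-like line of Drosophila melanogaster labelled wild type. Per the labels' protocols, each culture given dsRNA was bathed in 2 µg of it, and no amount applies to the Mock cultures. Cultures were grown for 3 days, and strand-specific libraries were sequenced after ribosomal RNA depletion. The 6 groups were a Mock treatment, dsRNA against B-gal as the control, and dsRNA against IntS4, IntS6, mts or Pp2A-29B, with 1 library of each in biological replicate sets A, B and C. B-gal levels stand beside those of mts and IntS4 as levels. Values per library are always in the order A, B, C, in CPM (counts scaled to a common library total after TMM normalisation).

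Integrator is a complex that binds RNA polymerase II soon after transcription starts and cuts the nascent RNA. It makes the 3′ ends of small nuclear RNAs (snRNAs) and ends transcription early at many protein-coding genes. IntS4 is a scaffold of its RNA-cutting module, which holds the endonuclease IntS11. The gene mts encodes the catalytic subunit of protein phosphatase 2A (PP2A). PP2A is bound by Integrator and also works outside it, with other regulatory subunits, in mitosis, signalling and the cytoskeleton.

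A gene was called different at an adjusted p under 0.05 in edgeR's quasi-likelihood F test, with Benjamini-Hochberg adjustment over all genes tested. Log2 fold changes are mts minus IntS4, so a negative value is a lower level with mts dsRNA. A value in brackets after a gene is this log2 fold change. The test gives the difference between both groups, not which of them left the control level. Outside ribosomal RNA the libraries held 3545714 (mts, set C) to 6325546 counts (IntS4, set B). Ribosomal RNA took 73.0 to 74.8% of counts in the mts libraries and 65.1 to 70.8% in the IntS4 libraries. The part of this gap in the results below was not tested. With those entries removed before normalisation 4560 genes were called, 4321 of them among the 4555 called with them, and the share of calls higher with mts dsRNA was 48.0% in place of 42.8%.

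Expression differed widely between both dsRNA treatments. Of the 8666 genes tested, 4555 were called (52.6%), of which 1948 were higher with mts dsRNA (22.5%) and 2607 lower (30.1%). These shares are the background for the counts in each gene list below. A list split near them is not read as a result about its members. The median log2 fold change was -0.08 over all genes tested, 0.66 over the genes called higher and -1.05 over those called lower. Large differences were mostly on 1 side. A difference of at least 4-fold was called for 821 genes (9.47%). Of these, 703 were lower with mts dsRNA (8.11%) and 118 higher (1.36%). At least 16-fold, the counts were 263 (3.03%) and 19 (0.219%). At the other end, 2743 called genes differed by less than 2-fold (31.7%).

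**Figure D1:**
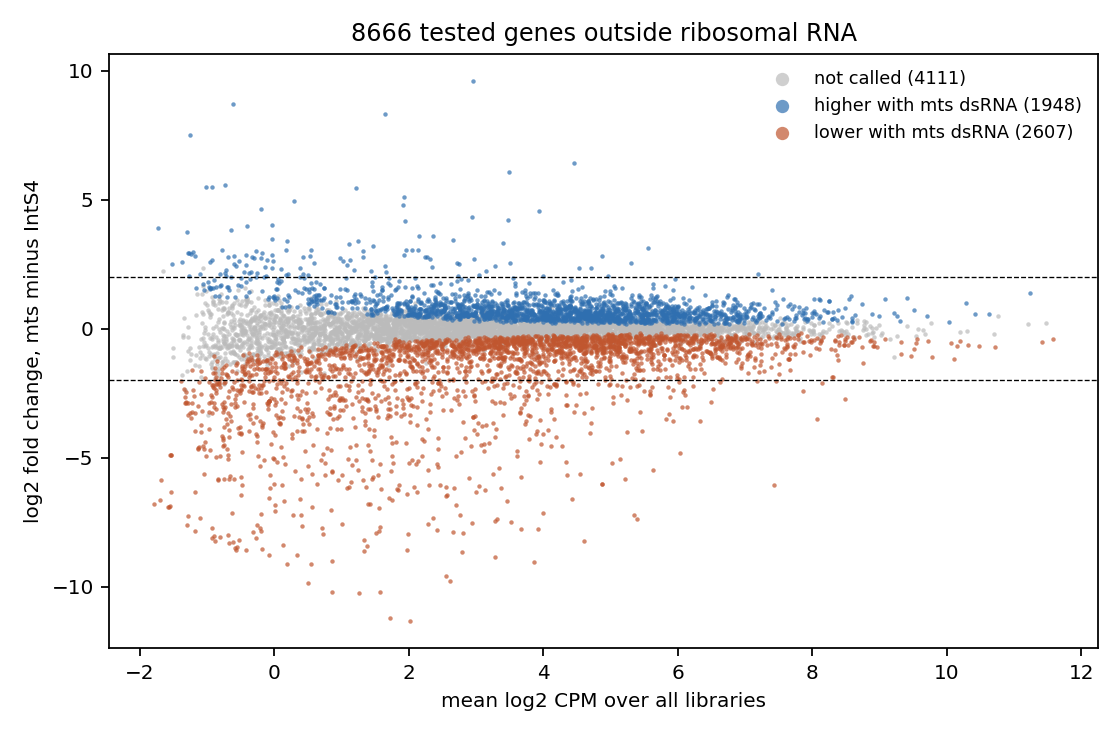
Log2 fold change (mts minus IntS4) against mean log2 CPM over all 18 libraries for the 8666 genes tested outside ribosomal RNA, 1 point a gene. Blue points are the 1948 genes called higher with mts dsRNA, orange points the 2607 called lower and grey points the rest. Dashed lines mark a 4-fold difference. The orange cloud below its line holds 703 genes and the blue cloud above its line 118.

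Many genes with large differences were barely detected in control cells. Of the 703 genes at least 4-fold lower with mts dsRNA, 66.3% had a mean level under 1 CPM with B-gal dsRNA, as had 73.7% of the 118 genes at least 4-fold higher. Among all genes tested the share was 15.4%. A gene this low in control cells mostly passed the count minimum through a group where it was higher, so the filter itself makes large differences frequent in this class, and nothing is read from the shares. The 12 lowest genes described further on are all of this kind.

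The targeted genes were read first. IntS4 (chromosome X, 8555239 to 8558781, minus strand) stood at 11.8, 12.6 and 11.0 CPM in the mts libraries, at 227, 43.1 and 26.3 CPM in the libraries labelled IntS4 dsRNA and at 12.2, 12.3 and 11.9 CPM with B-gal dsRNA. It was therefore higher, not lower, in all 3 libraries labelled as treated with its own dsRNA, without overlap, and by far the highest in set A. Its difference on the log2 scale was -3.06 (SE 0.52, adjusted p 7.3e-05), or -1.56 when IntS4 set A was left out. Total IntS4 counts thus do not show a depletion in those libraries, and they are called IntS4-labelled below. Whether reads from the dsRNA itself are among these counts was not tested.

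The level of mts (chromosome 2L, 7827650 to 7833576, plus strand) was 78.3, 47.6 and 66.0 CPM in the mts libraries, 102, 107 and 106 CPM in the IntS4-labelled libraries and 132, 153 and 165 CPM with B-gal dsRNA. All mts libraries lay below those of both other groups, with set B lowest (log2 fold change -0.72, SE 0.14, adjusted p 0.00033). Pp2A-29B, the PP2A scaffold subunit, stood at 169, 177 and 162 CPM with mts dsRNA and 123, 124 and 117 CPM in the IntS4-labelled libraries. The groups did not overlap, and the gene was 1.40-fold higher with mts dsRNA (log2 fold change 0.48, SE 0.08, adjusted p 5.2e-05). IntS6, an Integrator subunit that contacts PP2A, had 44.5, 44.4 and 36.4 CPM against 46.4, 43.2 and 54.0 CPM, with overlapping groups and no call (adjusted p 0.59).

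**Figure D2:**
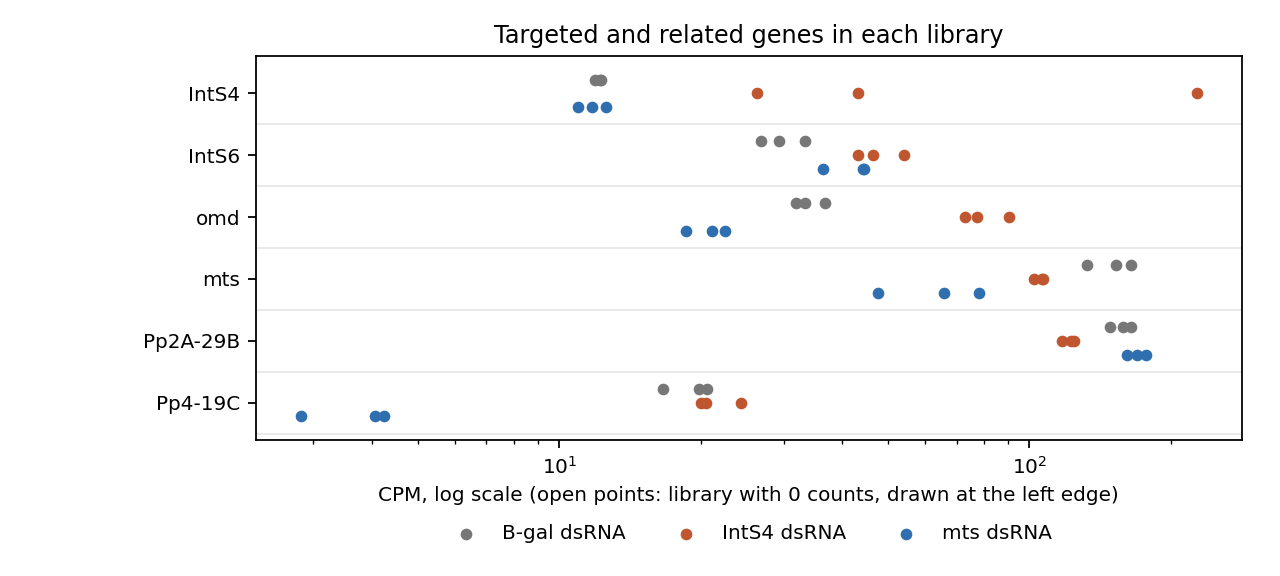
CPM on a log scale of the 4 targeted genes, of omd and of Pp4-19C in each of the 3 B-gal (grey), IntS4-labelled (orange) and mts (blue) libraries, 1 point a library. IntS4 is highest in the IntS4-labelled libraries, mts is lowest in the mts libraries, and omd and Pp4-19C are lower in every mts library than in every IntS4-labelled one.

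Among the 13 Integrator subunits, 3 were lower and 2 higher with mts dsRNA. Beside IntS4 the gap was widest for omd, the fly gene of Integrator subunit 5, at 18.6, 22.6 and 21.1 CPM with mts dsRNA and 72.8, 77.4 and 90.6 CPM in the IntS4-labelled libraries (log2 fold change -1.95, SE 0.10, adjusted p 1.1e-11). B-gal libraries had 36.7, 31.8 and 33.4 CPM, so the control lay between both groups and overlapped neither. IntS2 was also lower (-0.61), and IntS10 (0.58) and the endonuclease gene IntS11 (0.46) were higher. The call of IntS11 was lost without mts set A (adjusted p 0.082) and without IntS4 set C (0.088).

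Among 14 subunits of PP2A and of STRIPAK, a PP2A-containing kinase complex, 5 were higher and 3 lower, and no fold reached 2. The kinase gene GckIII (0.60), Strip (0.45), Mob4 (0.35) and wdb, a regulatory subunit of PP2A (0.30), were higher beside Pp2A-29B. CG4733 (-0.81), mts and Slmap (-0.32) were lower; the call of Slmap was lost with no filter on low counts (adjusted p 0.098). Of 8 other tested phosphatase genes of the same family, Pp4-19C, the catalytic subunit of protein phosphatase 4, differed most. It had 4.24, 2.82 and 4.05 CPM with mts dsRNA, 24.4, 20.5 and 20.1 CPM in the IntS4-labelled libraries and 20.6, 19.9 and 16.6 CPM with B-gal dsRNA. The mts libraries were the low ones for this gene, 5.83-fold below the IntS4-labelled libraries (log2 fold change -2.54, SE 0.15, adjusted p 1.4e-10), while IntS4-labelled and B-gal values overlapped. The genes flw (-0.77) and Pp1alpha-96A (-0.67) were also lower, and PpD3 (0.67) and Pp1-87B (0.48) higher.

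Most listed genes on which Integrator is known to end transcription early were lower with mts dsRNA than in the IntS4-labelled libraries. They were listed for this known link, with earlier results of these data known, so high levels in the IntS4-labelled libraries were likely beforehand. The counts and median below are given as a description only. Of 10 such genes taken from earlier work on Drosophila cells, 8 were lower, none higher and 2 not called, with a median log2 fold change of -2.88 against -0.08 over all genes tested. The gene pst (chromosome 3L, 7357275 to 7360263, minus strand), which affects resistance to viruses, stood at 64.3, 65.6 and 60.5 CPM with mts dsRNA, 761, 704 and 695 CPM in the IntS4-labelled libraries and 50.6, 53.1 and 48.6 CPM with B-gal dsRNA. The IntS4-labelled libraries stood far above both other groups, and the mts libraries lay just above the control (log2 fold change -3.50, SE 0.09, adjusted p 4.5e-15).

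Other members of this group had the same order at lower counts. Pepck1, which makes phosphoenolpyruvate for gluconeogenesis, had 2.31, 2.54 and 1.18 CPM against 131, 128 and 139 CPM, a 64.4-fold difference (log2 fold change -6.01, SE 0.23, adjusted p 3.9e-13). For ana, which encodes a secreted glycoprotein of glia, the values were 1.03, 0.423 and 1.27 CPM and 89.6, 76.9 and 99.5 CPM (log2 fold change -6.62, SE 0.24, adjusted p 2e-13). Sirup, an assembly factor of succinate dehydrogenase, had 2.70, 3.32 and 4.48 CPM and 61.0, 51.9 and 46.9 CPM (log2 fold change -3.94, SE 0.21, adjusted p 2.4e-11). In these 3 genes no library of one group came near the other, and B-gal levels (0.273, 0.227 and 0 CPM for Pepck1, 2.12, 1.82 and 2.00 CPM for ana and 2.05, 1.99 and 3.28 CPM for Sirup) were close to the mts levels or below them, except for ana, whose mts libraries were the lowest of the 3 groups.

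CG6847 (-3.35), the clotting protein gene Hml (-2.40), the ERK phosphatase gene Mkp3 (-1.08) and CG8620 (-0.94) were lower as well. Hml had 145, 130.0 and 70.4 CPM with mts dsRNA, 469, 555 and 803 CPM in the IntS4-labelled libraries and only 2.52, 2.27 and 3.78 CPM with B-gal dsRNA, so both groups stood above the control, the IntS4-labelled one further. Mkp3 had 21.9, 25.0 and 19.4 CPM with mts dsRNA against 50.8, 48.3 and 41.7 CPM and 43.5, 44.4 and 40.5 CPM, with the mts group alone apart. Naam, a nicotinamide amidase (-0.48, adjusted p 0.084), was not called, but was with the replicate set as a block (adjusted p 0.02 in edgeR). The metallothionein gene MtnA was not called either (adjusted p 0.62): its set C libraries were far above the others in all 3 groups, at 64.7 CPM with mts dsRNA and 35.1 CPM in the IntS4-labelled library, and its fold change turned from 0.85 to -1.30 without mts set C and to 2.93 without IntS4 set C. With the block MtnA was called higher (0.83, adjusted p 1.5e-05 in edgeR), so the list then held 9 lower members and 1 higher.

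Most tested genes that lie behind snRNA genes were lower with mts dsRNA as well. Within 2 kb of the 3′ end of an snRNA gene, on the same strand, lie 14 other genes, of which 13 were tested. All 13 were called, 10 lower and 3 higher with mts dsRNA, with a median of -1.88, and 1 was called higher without IntS4 set C. Members near silent in both mts and control cells, such as CG13962 and CG16820, could pass the count minimum only through a group where they were higher. Nothing is therefore read from the split or the median. Of the 6 that start downstream of the snRNA gene 5 were lower, and of the 7 that contain it 5 were lower. No source used here states the strand setting of the counting, and for genes that contain an snRNA gene the reads of both cannot be told apart.

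CG15482 (chromosome 2L, 13210773 to 13211814, minus strand) starts 111 bp behind snRNA:U2:34ABa. It had 1.80, 1.98 and 0.845 CPM with mts dsRNA, 252, 238 and 216 CPM in the IntS4-labelled libraries and 0.478, 0.397 and 0.111 CPM with B-gal dsRNA, a 148-fold difference between mts and IntS4 (log2 fold change -7.21, SE 0.41, adjusted p 6.2e-11). CG16820 (chromosome 2L, 13246232 to 13250189, plus strand) starts 1258 bp behind snRNA:U5:34A and had 0.321, 0 and 0.169 CPM against 29.0, 30.5 and 26.0 CPM (log2 fold change -7.34, SE 0.40, adjusted p 3.8e-11); its log2 fold change was -8.39 without mts set A. CG13962 (chromosome 2L, 19813704 to 19814532, minus strand) starts 1082 bp behind snRNA:U2:38ABa and lies opposite sick. It had no count in any mts or B-gal library and 19.1, 19.3 and 17.8 CPM in the IntS4-labelled libraries, at least 259.8-fold higher than with mts dsRNA when set against 3 counts over the group. All 3 genes were near silent in both mts and control cells and clearly expressed in each IntS4-labelled library.

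Genes that contain an snRNA gene made by RNA polymerase II mostly had the same order. Atg18b, an autophagy gene around snRNA:U4:39B, had 15.2, 11.5 and 17.7 CPM with mts dsRNA, 232, 236 and 218 CPM in the IntS4-labelled libraries and 3.07, 2.10 and 2.06 CPM with B-gal dsRNA (log2 fold change -3.95, SE 0.19, adjusted p 7.1e-12). FASN2, a fatty acid synthase gene around snRNA:LU and snRNA:U5:23D, had 6.43, 5.43 and 1.69 CPM against 62.9, 66.4 and 37.5 CPM, with 1.09, 0.681 and 0.612 CPM in the B-gal libraries (log2 fold change -3.59, SE 0.36, adjusted p 1.3e-07). Atg18b and FASN2 were above the control in every mts library, but the IntS4-labelled libraries were higher again, without overlap. CG34355 (-2.77, and -3.56 without mts set B), sick (-1.88) and cno, a junction protein gene (-0.60), were lower too. Eip63E, a cyclin-dependent kinase gene around snRNA:U7, went the other way (0.28, adjusted p 0.034), a call that was lost without mts set A or B or without IntS4 set B or C.

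The U6 and 7SK snRNA genes are transcribed by RNA polymerase III, so their neighbours are described apart. Esyt2, which contains snRNA:U6:96Aa and encodes a membrane tether, was higher with mts dsRNA, at 134, 126 and 134 CPM against 73.2, 76.9 and 68.9 CPM (log2 fold change 0.84, SE 0.13, adjusted p 2.8e-05). Behind snRNA:7SKa, CG1142 (-1.18) and the overlapping scaRNA:MeU5-C46 (-0.48) were lower; the latter call was lost without mts set C, without IntS4 set A or B, and in a fit of only the 6 libraries. Unlike these, ND-B17, a subunit gene of respiratory complex I, starts 479 bp behind a gene made by RNA polymerase II, snRNA:U5:35D. ND-B17 was higher (0.63), opposite to CG15482, CG16820 and CG13962, a call that was lost without mts set C or IntS4 set C.

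**Figure D3:**
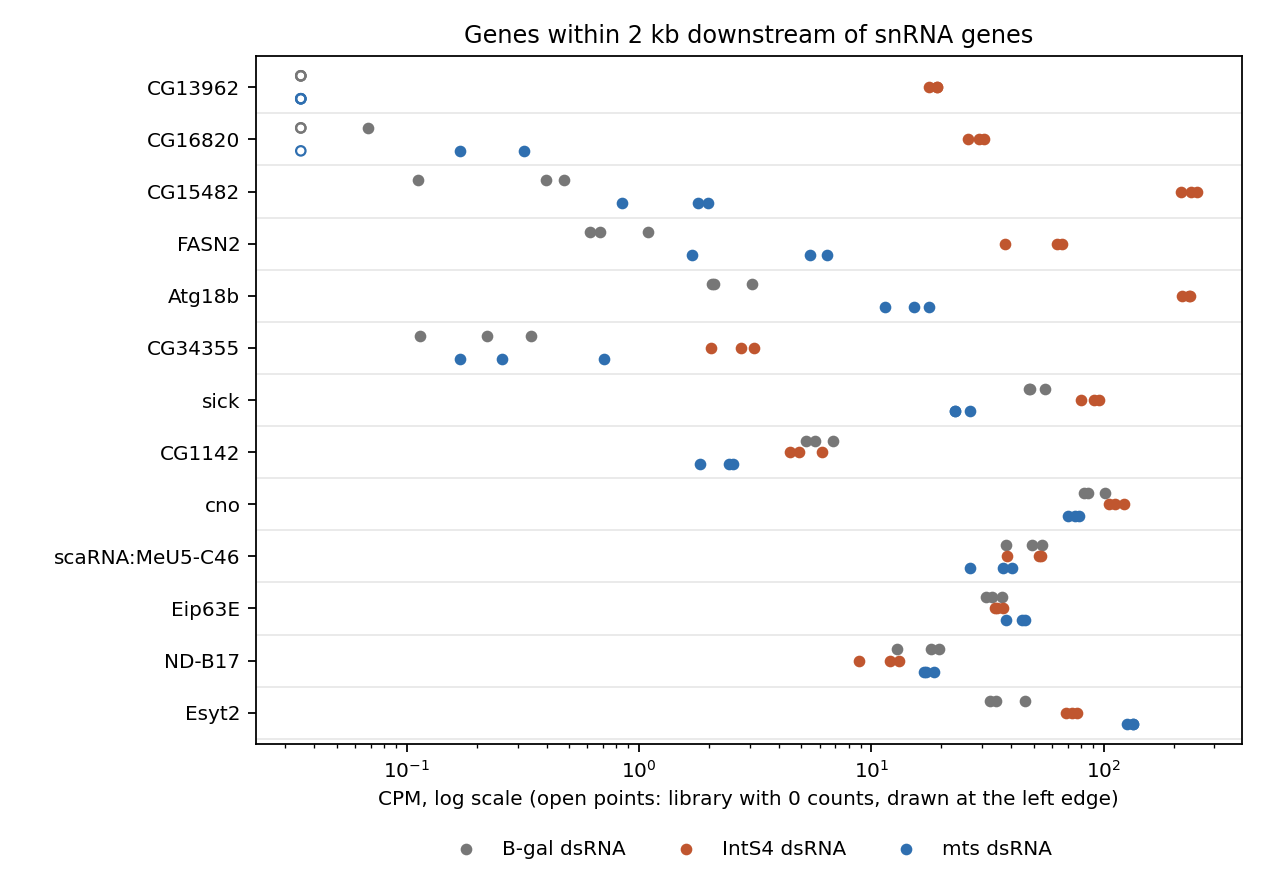
CPM on a log scale of the 13 tested genes within 2 kb downstream of an snRNA gene in each B-gal (grey), IntS4-labelled (orange) and mts (blue) library, 1 point a library and open points for libraries with 0 counts. From CG13962 to CG34355 the IntS4-labelled libraries stand alone on the right, while Eip63E, ND-B17 and Esyt2 are highest with mts dsRNA.

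Of 21 snRNA genes tested, 9 were lower and 2 higher with mts dsRNA. Copies of one snRNA are near identical and share reads, so single copies are uncertain. Lower were snRNA:U1:95Ca (-3.88), snRNA:U1:82Eb (-2.88) and snRNA:U4:38AB (-1.36), the last at 60.1, 53.3 and 67.5 CPM against 166, 165 and 131 CPM. The minor-spliceosome gene snRNA:U11 was higher, at 53.6, 50.4 and 71.3 CPM against 28.2, 25.2 and 22.2 CPM with 67.1, 47.4 and 56.9 CPM in B-gal libraries (log2 fold change 1.21, SE 0.18, adjusted p 1.6e-05). For U11 the IntS4-labelled libraries were the low ones. The calls of snRNA:LU, snRNA:U5:23D, snRNA:U5:63BC and snRNA:U2:14B were each lost in at least 1 fit without 1 library.

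Among called genes whose log2 CPM averaged 2 or more, without overlap between the groups, the 12 lowest with mts dsRNA were CG8568, Gld, CG8170, pros, amon, CG2150, stl, Ugt36D1, CG43737, tbc, rdo and rk. All 12 stood under 1 CPM in every mts and every B-gal library, and at 11.1 CPM or more in every IntS4-labelled library. They include tissue-specific genes: pros encodes a homeodomain protein of differentiating neurons, amon a convertase that cuts prohormones, rk the receptor of the hormone bursicon and Gld glucose dehydrogenase.

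CG8568 had no count in the mts libraries and 21.5, 22.2 and 17.7 CPM in the IntS4-labelled libraries, at least 285-fold more. Gld had 1 count in the mts libraries together and 32.3, 30.0 and 22.3 CPM in the IntS4-labelled libraries, a ratio of 1173 (95% interval 210.1 to 46352). For pros the values were 0.129, 0.141 and 0 CPM and 50.6, 56.5 and 58.1 CPM (log2 fold change -9.05, SE 0.37, adjusted p 7.7e-13). All 3 genes had few or no counts in the mts libraries. Bounds and intervals cover counting error only.

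The gene stl, which encodes a secreted metalloprotease, had 0.321, 0.141 and 0.591 CPM with mts dsRNA and 89.4, 96.8 and 122 CPM in the IntS4-labelled libraries (log2 fold change -8.22, SE 0.24, adjusted p 1.5e-14). The receptor gene rk had 0.129, 0.141 and 0.422 CPM and 49.8, 50.3 and 45.2 CPM (log2 fold change -7.75, SE 0.34, adjusted p 2.2e-12), with -8.41 without mts set C. Count ratios of amon and CG8170 were 519 (95% interval 177 to 2518) and 1030.2 (95% interval 185 to 40726). Neither stl nor rk came near an overlap between the groups.

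Among genes with a mean of at least 100 CPM over the 6 libraries, Tig, which encodes the matrix protein tiggrin, an integrin ligand, had 9.26, 8.11 and 7.35 CPM with mts dsRNA, 550.2, 538 and 555 CPM in the IntS4-labelled libraries and 1.57, 1.31 and 1.73 CPM with B-gal dsRNA (log2 fold change -6.05, SE 0.19, adjusted p 2.5e-14). CG7420 had 4.18, 5.08 and 3.80 CPM and 192, 196 and 205 CPM (log2 fold change -5.50, SE 0.15, adjusted p 7.3e-15). The endocytic receptor gene mgl had 27.8, 20.7 and 16.6 CPM and 255, 265 and 264 CPM, with 1.84, 2.16 and 1.78 CPM in B-gal libraries (log2 fold change -3.58, SE 0.19, adjusted p 2.1e-11). Tig and mgl were above the control in every mts library as well, but far below the IntS4-labelled level. CG15482, Atg18b and pst complete the 6 lowest of these abundant genes.

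Genes higher with mts dsRNA were led by a small set, in which mts set C was often the highest library. CG33225 (chromosome 2R, 21590275 to 21591584, plus strand) had 17.9, 7.69 and 88.7 CPM with mts dsRNA and only 2 counts in the IntS4-labelled libraries, a ratio of 842 (95% interval 233 to 6963). Its fitted log2 fold change was 9.59 (SE 1.56) and 8.04 without mts set C. ItgaPS4, an integrin alpha subunit gene, had 78.9, 46.4 and 193 CPM against 0.584, 1.72 and 1.25 CPM (log2 fold change 6.41, SE 0.73, adjusted p 7.2e-07), and 5.66 without mts set C. The surface protein gene atilla, a marker of lamellocytes, had 44.2, 24.3 and 86.6 CPM against 0.584, 0.303 and 1.51 CPM (log2 fold change 6.05, SE 0.65, adjusted p 3.9e-07), and 6.91 without IntS4 set C. In all 3 genes every mts library was above every IntS4-labelled and B-gal library, with set C highest and set B lowest. Some leading genes share part of their exons with a gene on the other strand (ItgaPS4 with Trpm, CG15482 with Pect, Tig with CG13982), and without the strand setting reads from the shared stretch cannot be told apart. The span of atilla lies within that of bru1 on the other strand, with no shared exon.

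A difference with less spread between sets was seen for Ac78C and mthl2. Ac78C, an adenylyl cyclase gene, had 56.1, 46.3 and 62.3 CPM with mts dsRNA, 2.12, 2.43 and 2.43 CPM in the IntS4-labelled libraries and 2.12, 1.76 and 2.89 CPM with B-gal dsRNA (log2 fold change 4.55, SE 0.23, adjusted p 1e-11). The receptor gene mthl2 had 32.1, 25.7 and 27.7 CPM against 0.876, 1.42 and 1.90 CPM (log2 fold change 4.33, SE 0.19, adjusted p 2.2e-12). For Ac78C the IntS4-labelled libraries overlapped the control, and for mthl2 (0.273, 0.170 and 0.223 CPM with B-gal dsRNA) they lay above it. The others of the 12 highest were CG33494, CG11400, CG12947, the transcription factor gene bowl (3.45), the fatty acid oxidation gene Mcad (3.33), CG13117 and CG42846 (3.05).

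**Figure D4:**
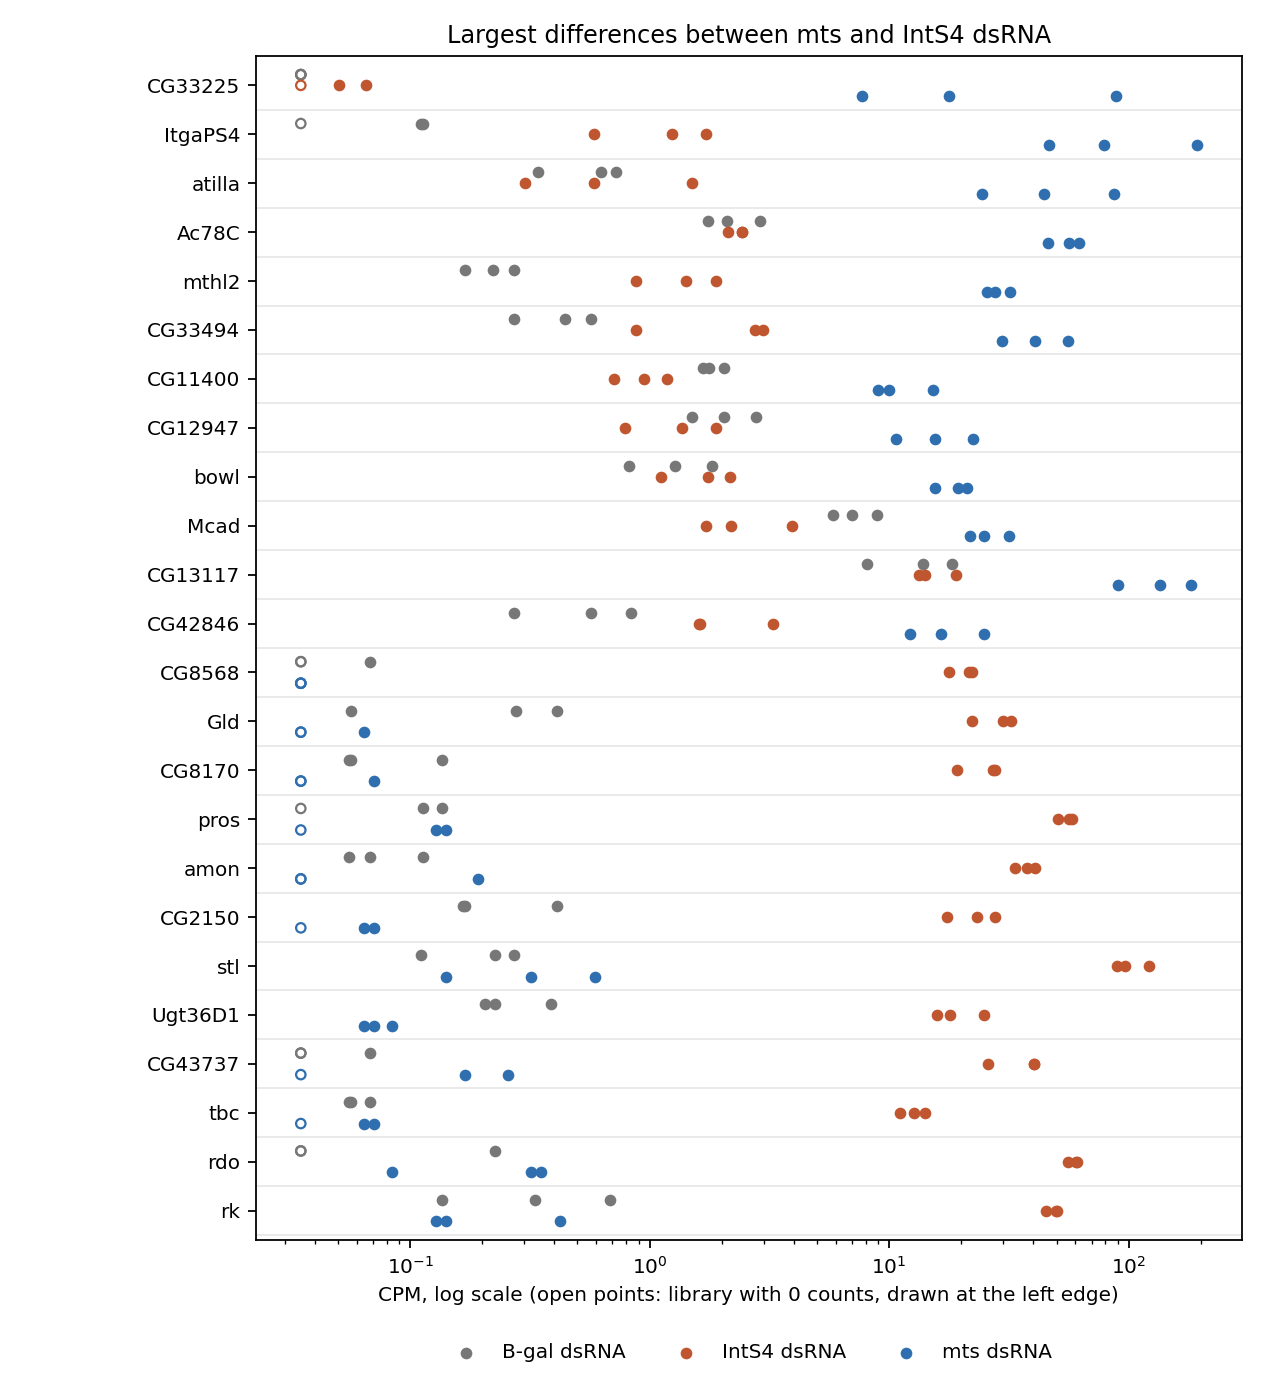
CPM on a log scale of the 12 highest (top) and 12 lowest genes of the comparison in each B-gal (grey), IntS4-labelled (orange) and mts (blue) library, 1 point a library and open points for libraries with 0 counts. In the lower block only the IntS4-labelled points exceed 1 CPM. In the upper block the mts points stand alone on the right, and CG33225, ItgaPS4 and atilla spread widest.

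Abundant genes higher with mts dsRNA differed less. CG15347 had 393, 335 and 480.3 CPM against 85.5, 101 and 88.7 CPM (log2 fold change 2.13, SE 0.19, adjusted p 2.4e-08). Act5C, a cytoplasmic actin gene, had 5694, 4909 and 4676 CPM with mts dsRNA, 2035, 2319 and 1545 CPM in the IntS4-labelled libraries and 1221, 1367 and 912 CPM with B-gal dsRNA (log2 fold change 1.37, SE 0.21, adjusted p 2.3e-05). GstD1, a glutathione transferase gene, had 988, 896 and 969.6 CPM against 419, 421 and 359.7 CPM, with 92.0, 77.0 and 78.3 CPM in B-gal libraries (log2 fold change 1.25, SE 0.11, adjusted p 3.9e-08). For Act5C and GstD1 both groups stood above the control in every library, and the mts libraries furthest. CG31705 (1.51) and the vesicle fusion gene Syb (1.29) were higher too.

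Matrix genes were lower and integrin genes mostly higher with mts dsRNA. Of 14 tested genes of matrix and basement membrane, 13 were lower and none higher, with a median of -1.67. Beside Tig, mfas had 143, 136 and 184 CPM against 970.2, 941 and 1135 CPM (log2 fold change -2.72, SE 0.17, adjusted p 2.4e-10). The perlecan gene trol had 189, 200.4 and 137 CPM against 614, 612 and 703 CPM (log2 fold change -1.87, SE 0.14, adjusted p 3.3e-09). Summed over the list, mts libraries held 2033 to 2266 CPM, IntS4-labelled libraries 5128 to 6534 CPM and B-gal libraries 1679 to 2224 CPM, so the mts sums overlapped the control and the IntS4-labelled ones did not.

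The collagen IV genes Col4a1 (-3.77) and vkg (-3.08, and -3.70 without mts set C) were lower as well. Of 4 tested metalloproteinase genes and their inhibitors, 3 were lower. Mmp2 had 3.66, 3.18 and 9.88 CPM against 84.0, 80.4 and 106 CPM (log2 fold change -4.05, SE 0.34, adjusted p 1.6e-08), and -4.71 without mts set C. The inhibitor gene Timp was lower too (-3.96), and Reck, a membrane inhibitor of metalloproteinases, had 1 count in the mts libraries, a ratio of 461 (95% interval 82.3 to 18224) in favour of the IntS4-labelled ones.

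Of 15 integrin and focal adhesion genes, 10 were higher and 2 lower, with a median of 0.60. ItgaPS4 was the extreme case, and Ilk (0.82) and parvin (0.82), partners in the complex that links integrins to actin, were higher by less than 2-fold. The talin gene rhea (2.04, and 1.28 without mts set C) and mys, the main integrin beta subunit (0.95), were higher, while the alpha subunit genes mew (-2.09) and if (-0.68) were lower. The call of if was lost without mts set B or C and without IntS4 set A.

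Markers of haemocyte types differed in direction. Of 9 tested plasmatocyte markers 5 were lower and 2 higher, with a median of -1.25, which ran from -1.93 without mts set C to -0.80 without IntS4 set C. Hml, Col4a1, vkg and NimC1 (-1.87) were among the lower ones, and the phagocytic receptor gene eater was higher (0.84). Of 9 lamellocyte markers 6 were higher and 2 lower, with a median of 0.95. Their sum was 1774 to 2644 CPM in the mts libraries and 1676 to 1744 CPM in the IntS4-labelled libraries. B-gal libraries held 797 to 914 CPM, so the sum stood above the control in both groups. Beside atilla and ItgaPS4 the filamin gene cher had 795, 644 and 905 CPM against 341, 381 and 337 CPM (log2 fold change 1.15, SE 0.15, adjusted p 3e-06). Tep4, the other listed gene with a lower call beside alphaTub85E, is not specific to lamellocytes (-1.23). Its means were 229 CPM with mts dsRNA, 537 CPM in the IntS4-labelled libraries and 287 CPM with B-gal dsRNA. The split and the sums include Tep4, and nothing is read from its direction. Against the direction of the list, alphaTub85E was lower (-2.58, and -3.24 without mts set C). PPO3, the phenoloxidase of lamellocytes, was not called (-0.56, adjusted p 0.11). Mean levels of PPO3 were 142 CPM with mts dsRNA, 209 CPM in the IntS4-labelled libraries and 5.69 CPM with B-gal dsRNA. Those of alphaTub85E were 14.7, 86.6 and 0.124 CPM in the same order, so both genes stood above the control in both groups.

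Of 5 crystal cell markers 3 were tested, and all 3 were lower, namely peb (-4.95), fok (-2.14) and lz. PPO1 and PPO2 had too few counts to be tested. With a mean of 0.743 CPM in B-gal libraries, peb could pass the count minimum through the group where it was higher. Nothing is therefore read from this split. The call of lz, which had at most 0.338 CPM with mts dsRNA and 0.809 CPM in the IntS4-labelled libraries, was lost with DESeq2, without mts set A or B, and without any 1 of the IntS4-labelled libraries. Of 8 haemocyte transcription factors 7 were lower and none higher. The GATA factor gene srp had 126, 110.1 and 120.4 CPM against 169, 169.8 and 191 CPM (log2 fold change -0.57, SE 0.08, adjusted p 5.7e-06), and gcm had 1 count with mts dsRNA, a ratio of 328 (95% interval 58.6 to 13002) in favour of the IntS4-labelled libraries. In bulk RNA, fewer cells of a type and less RNA per cell cannot be told apart.

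The haemocyte identity of the line was read from 6 general haemocyte markers, which summed to 415 to 470 CPM in the mts libraries, 828 to 1239 CPM in the IntS4-labelled ones and 216 to 246 CPM in B-gal ones. With B-gal dsRNA most of the sum came from srp (mean 122 CPM) and ush (65.9 CPM), with Hml at 2.86 CPM. The gap between the mts and IntS4-labelled sums lies mostly in Hml, while He, another of the 6, was higher with mts dsRNA at 142, 126 and 182 CPM against 81.5, 82.7 and 105 CPM (log2 fold change 0.74, SE 0.17, adjusted p 0.0013). Markers of germ line (at most 1.17 CPM) and fat body (at most 2.63 CPM, with Lsp2 at 0 counts in all 6 libraries) were near absent. Those of follicle soma, tj and Fas3, were clearly present. They summed to 58.7 to 73.5 CPM with mts dsRNA and 126 to 134 CPM in the IntS4-labelled libraries. In B-gal libraries the follicle soma sum was 168 to 192 CPM. The neuron markers summed to at most 22.3 CPM, mostly elav. Markers of glia and muscle were split. The glial gene repo (-5.29) and the muscle gene Mhc (-3.36) were lower with mts dsRNA, with at most 0.338 CPM of either gene in any mts library. The glial marker nrv2 was higher at 36.0, 35.1 and 26.4 CPM against 28.9, 26.2 and 24.1 CPM (0.30), as was the muscle marker Mef2 at 45.6, 45.2 and 48.9 CPM against 37.3, 35.9 and 44.2 CPM (0.25). The call of nrv2 was lost without mts set A or B and without IntS4 set B or C, and that of Mef2 without mts set C and without IntS4 set A or B. The part of such markers in the other differences was not tested.

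**Figure D5:**
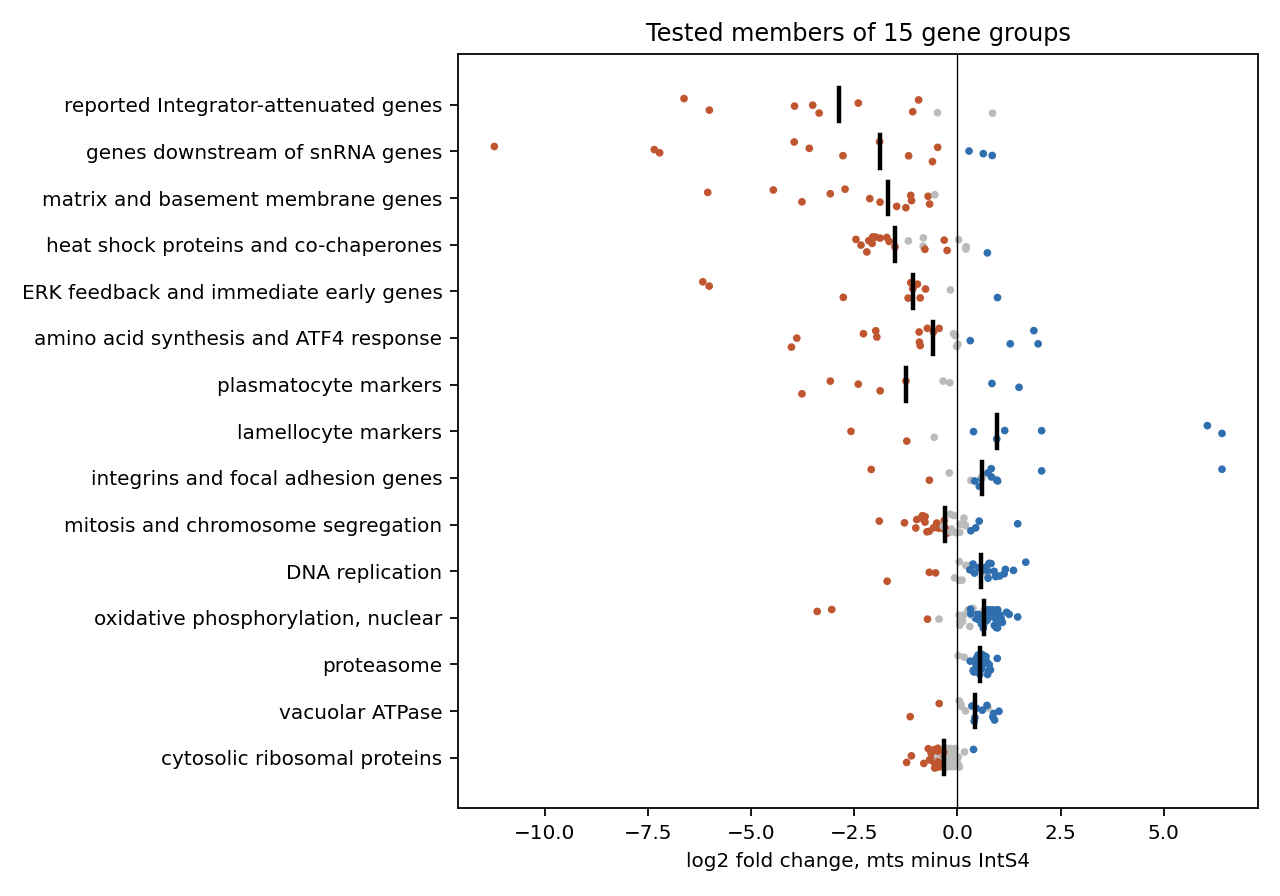
Log2 fold change (mts minus IntS4) of each tested member of 15 gene groups, 1 point a gene: blue for genes called higher with mts dsRNA, orange for those called lower, grey for the rest. Black bars are group medians, from -2.88 for reported Integrator-attenuated genes to 0.95 for lamellocyte markers. Proteasome genes form a tight cluster to the right of 0. Most oxidative phosphorylation genes lie there too, but 3 were called lower, down to -3.40.

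Feedback genes of ERK signalling were lower with mts dsRNA: 10 of 12 were called lower and 1 higher, with a median of -1.07. Hr38, an immediate early nuclear receptor gene, had 0.257, 0.141 and 1.18 CPM against 32.3, 34.2 and 39.9 CPM, with 4.57, 2.90 and 4.17 CPM in B-gal libraries (log2 fold change -6.17, SE 0.33, adjusted p 2.3e-11), and -7.40 without mts set C. Hr38 was lowest with mts dsRNA and highest in the IntS4-labelled libraries, with the control between. The Jun gene Jra was the 1 that was higher (0.97).

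Other signalling lists were split. In the JNK pathway 5 of 14 genes were higher, among them Jra and the JNK gene bsk (0.81), and 4 lower, among them Traf4 (-2.94), the TNF receptor gene wgn (-2.79) and the Fos gene kay (-0.90). In the Wnt pathway 14 of 24 were lower and 4 higher, with the receptor gene fz3 (-3.16) and the glypican gene dally (-1.45) lower and Apc (1.24), part of the complex that destroys beta-catenin, higher. Of 13 JAK/STAT genes 5 were lower and 2 higher: the cytokine genes upd1 (-2.19) and upd3 (1.13) went opposite ways. The receptor antagonist gene et had 12.2, 13.0 and 15.0 CPM against 0.949, 1.01 and 4.00 CPM (log2 fold change 2.77, SE 0.40, adjusted p 1.4e-05), and 3.76 without IntS4 set C.

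Of 19 genes of insulin and TOR signalling 10 were lower and 1 higher. The insulin receptor gene InR had 67.2, 72.0 and 66.9 CPM with mts dsRNA, 211, 214 and 211 CPM in the IntS4-labelled libraries and 158, 204 and 211 CPM with B-gal dsRNA, so the mts libraries alone were low (log2 fold change -1.63, SE 0.11, adjusted p 1.2e-09). The stress-response gene Sesn was lower as well, at 23.8, 22.1 and 18.4 CPM against 83.7, 76.6 and 93.8 CPM (log2 fold change -1.98, SE 0.10, adjusted p 2.4e-11). In the Hippo pathway 4 of 17 were higher, such as the transcription factor gene sd (0.65), and 6 lower, such as kibra (-0.68). Of 12 ecdysone response genes 6 were lower, with Eip75B at -1.07, and 2 higher, with Eip74EF at 0.78. Of 11 cAMP genes 2 were higher and 3 lower, with the cyclase genes Ac78C and Ac13E (-2.42) at opposite ends.

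Of 23 genes of neuronal receptors and synapses only 10 had enough counts to be tested, of which 7 were lower and 1 higher, with a median of -2.10. A member near silent in control cells, such as SKIP, could pass the count minimum through the group where it was higher. Nothing is therefore read from this split or median. SKIP, which encodes a potassium channel partner, had 5.40, 4.37 and 2.79 CPM against 149, 137 and 138 CPM, with 0.546, 0.284 and 0.334 CPM in B-gal libraries (log2 fold change -5.05, SE 0.17, adjusted p 4.7e-14). The octopamine receptor gene Oamb had 3 counts with mts dsRNA, a ratio of 36.7 (95% interval 12.3 to 180.2) in favour of the IntS4-labelled libraries, and the dopamine receptor gene Dop1R1 was higher with mts dsRNA (2.81).

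Most heat shock genes were lower with mts dsRNA, and Hsp83 was higher. Of 21 tested heat shock proteins and co-chaperones 14 were lower and 1 higher, with a median of -1.51. DnaJ-1, a co-chaperone gene, had 43.9, 43.8 and 55.6 CPM against 202, 209 and 189 CPM, with 63.5, 64.9 and 64.9 CPM in B-gal libraries (log2 fold change -2.07, SE 0.10, adjusted p 7.9e-12). Hsp27 had 40.1, 40.9 and 38.9 CPM against 150.2, 153 and 136 CPM (log2 fold change -1.87, SE 0.12, adjusted p 3.2e-10). The mts libraries were below the IntS4-labelled ones for both genes, and for DnaJ-1 below the control too. The Hsp90 gene Hsp83 was higher, at 920.3, 1007 and 766 CPM against 543, 595 and 491 CPM (log2 fold change 0.73, SE 0.11, adjusted p 2.1e-05). Copies of Hsp70 are near identical and share reads.

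Detoxification and defence genes were mixed. Of 26 glutathione transferase genes 10 were lower, such as GstS1 (-1.95), and 7 higher, such as GstD1 and GstE2 (2.74); 6 were lower without mts set A and without IntS4 set A. Of 19 antioxidant genes 8 were lower, with the peroxiredoxin gene Prx6c at 1.93, 1.62 and 3.72 CPM against 86.0, 85.9 and 82.8 CPM (log2 fold change -5.16, SE 0.26, adjusted p 1.1e-11), and 5 higher, with the superoxide dismutase genes Sod1 (0.75) and Sod2 (0.78). Of 15 antimicrobial peptide genes only 3 were tested, of which 2 were lower and 1 higher, too few to read a direction. The cecropin gene CecA1 had 2.83, 2.40 and 1.94 CPM against 41.8, 48.3 and 51.8 CPM (log2 fold change -4.29, SE 0.19, adjusted p 2.7e-12). Another cecropin gene, CecC, was higher (1.08), a call that was lost without mts set C. The other lower gene, Drs, lost its call with DESeq2 and in several other alternatives. Of 21 Imd and Toll genes 6 were lower, with the NF-kappaB genes Rel (-1.22) and Dif (-0.87), and 3 higher, with the kinase gene pll (0.98) and the ligand gene spz (0.98). Of 14 apoptosis genes 5 were lower, with hid (-1.42), and 2 higher, with Debcl (0.72). Among all genes tested 30.1% were lower and 22.5% higher, and the Imd and Toll and apoptosis counts lay near or below these shares.

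Genes of mitosis and of DNA replication mostly differed in opposite directions. Of 36 mitosis genes 21 were lower and 4 higher with mts dsRNA, with a median of -0.29. Incenp, of the chromosomal passenger complex, had 41.1, 39.0 and 38.2 CPM with mts dsRNA, 153, 138 and 148 CPM in the IntS4-labelled libraries and 73.1, 64.5 and 62.2 CPM with B-gal dsRNA (log2 fold change -1.89, SE 0.09, adjusted p 6.5e-12). Incenp was thus lowest with mts dsRNA, below the control as well. The Cdc25 gene stg (-1.28) and the spindle midzone gene feo (-1.01) were lower, and the centromeric histone gene cid was higher (1.46).

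Of 28 DNA replication genes 18 were higher and 3 lower, with a median of 0.57. CycE, the cyclin of entry into S phase, had 88.9, 87.8 and 71.5 CPM with mts dsRNA, 25.1, 26.2 and 27.5 CPM in the IntS4-labelled libraries and 60.4, 65.6 and 58.4 CPM with B-gal dsRNA (log2 fold change 1.66, SE 0.09, adjusted p 7.4e-11). The mts libraries were above the control and the IntS4-labelled ones below it, without overlap. The licensing gene dup was higher (1.36), as was the polymerase alpha gene PolA1 (0.74). RnrS, the small subunit of ribonucleotide reductase, was lower (-1.70).

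Respiratory chain genes were higher with mts dsRNA as a broad, moderate difference. Of 70 nuclear oxidative phosphorylation genes tested, 51 were higher and 3 lower, with a median of 0.65 and no member above 1.46. That highest member was Cyt-c1 of complex III, at 43.2, 43.7 and 39.9 CPM with mts dsRNA, 15.3, 16.9 and 13.8 CPM in the IntS4-labelled libraries and 37.3, 34.0 and 32.6 CPM with B-gal dsRNA (log2 fold change 1.46, SE 0.12, adjusted p 6.4e-09). The complex IV gene COX4 was also higher (1.01). Summed over the list, mts libraries held 2834 to 3108 CPM, IntS4-labelled ones 1982 to 2119 CPM and B-gal ones 3294 to 3657 CPM, so both groups lay below the control and the IntS4-labelled one further. The 3 lower members were ND-30 (-0.72) and the low-count paralogues ND-51L2 and COX7AL.

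Of 13 genes of the mitochondrial genome 2 were higher and none lower, and of 72 mitochondrial ribosomal protein genes 19 were higher and 3 lower (median 0.24). Without IntS4 set C 12 were higher, and without mts set C 5 were lower. The share of higher mitochondrial ribosomal protein genes was near the 22.5% of all genes tested. Of 14 genes of fatty acid oxidation and the glycerophosphate shuttle 6 were higher and 4 lower. The mitochondrial genes Mtpalpha (1.29), Mtpbeta (1.72) and Mcad were higher, and Acox57D-p, an acyl-CoA oxidase of peroxisomes, was lower at 18.3, 18.9 and 16.7 CPM against 190.4, 202 and 219 CPM (log2 fold change -3.50, SE 0.11, adjusted p 2.5e-14). The glycerophosphate shuttle enzymes Gpo1 (1.95) and Gpdh1 (-2.17) went opposite ways.

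Carbon and amino acid metabolism leaned the other way. Of 12 glycolysis genes 8 were lower, with Pfk (-1.04) and Pgi (-0.94), and 2 higher, or none without IntS4 set C. Of 19 genes of amino acid synthesis and the ATF4 response 11 were lower and 4 higher (median -0.58). Asparagine synthetase, AsnS, had 29.8, 32.8 and 25.5 CPM with mts dsRNA, 142, 140.0 and 146 CPM in the IntS4-labelled libraries and 18.2, 18.4 and 18.6 CPM with B-gal dsRNA (log2 fold change -2.28, SE 0.09, adjusted p 3.9e-13). The phosphoserine phosphatase gene aay (1.85) and the ornithine aminotransferase gene Oat (1.96) were higher. Of 12 genes of fatty acid synthesis, its SREBP regulators and fatty acid use 7 were lower, with FASN1 (-1.17), and 2 higher, with ACC (0.47).

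Nearly all proteasome genes were higher with mts dsRNA by a moderate factor. Of 32 tested genes 30 were higher, none lower and 2 not called, with a median of 0.55 and a highest value of 0.97. Prosalpha3, of the core particle, had 84.2, 80.4 and 77.7 CPM against 42.8, 42.6 and 38.6 CPM, with 59.4, 49.5 and 44.8 CPM in B-gal libraries (log2 fold change 0.97, SE 0.10, adjusted p 2e-07). The ubiquitin receptor gene Rpn10 (0.80) and the ATPase gene Rpt4 (0.69) were higher too. The sum over the list was 2501 to 2643 CPM with mts dsRNA, 1728 to 1890.0 CPM in the IntS4-labelled libraries and 1945 to 2054 CPM with B-gal dsRNA, so the mts libraries were above both.

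Of 17 genes of the vacuolar ATPase 10 were higher, with Vha100-1 (1.01) and Vha55 (0.87), and 2 lower. Of 20 autophagy genes 8 were lower and none higher, with Atg1 at -0.56. Of 82 cytosolic ribosomal protein genes 32 were lower and 1 higher (median -0.32), with 20 lower without mts set C and 21 without IntS4 set A. RpL3, which hosts snoRNA genes on its strand, had 556, 586 and 432 CPM with mts dsRNA, 1189, 1121 and 1099 CPM in the IntS4-labelled libraries and 1185, 989.7 and 935 CPM with B-gal dsRNA (log2 fold change -1.11, SE 0.12, adjusted p 4.6e-07). The mts libraries alone were low for RpL3. The only higher member, RpL39, lost its call without IntS4 set C.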

How the data were processed

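The deposited table of the authors gives estimated counts for each gene in each library, without normalisation, of which 90.1% were whole numbers within 0.005. The submitters' processing notes name Trimmomatic 0.39, featureCounts, dm6 and BDGP6; neither the aligner nor the counting settings are given in the sources used here. The plan assumed whole counts, so estimated counts were rounded. Coordinates and symbols are from the Ensembl 115 annotation of BDGP6, which holds 17626 of the entries.

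All 18 libraries entered 1 fit of 6 groups in edgeR 4.0.16 (R 4.3.3, limma 3.58.1) with TMM factors and filterByExpr at a count minimum of 10. The fit covered 8699 entries, 33 of them ribosomal, and left 12 residual degrees of freedom; the common biological CV was 0.131. The SE of a log2 fold change is its size over the root of F. CPM use library totals that include ribosomal RNA. Tests are two-sided. Totals of the 6 libraries ran from 13993686 to 19298500 counts. Within-group correlations of log2(CPM + 1) over genes were 0.985 to 0.994 and those between mts and IntS4-labelled libraries 0.896 to 0.913. On simulated data for this comparison, 8466 genes in all, the fit called 96.0% of genes lowered 2-fold, 98.0% of those raised 2-fold and 0.194% of unchanged genes. In the simulation 200 well-counted genes were changed, as many raised as lowered, and every gene had the common biological CV. The real data hold genes of few counts, unequal spread and far more differences, so these rates do not carry over to them.

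Where a group had no count, the fold is a bound computed with 3 counts for the group. With 1 to 3 counts, the ratio of normalised counts has an exact 95% interval. Named genes are the targeted genes, the 12 highest and 12 lowest called genes without overlap whose log2 CPM averaged 2 or more, the 6 per direction with a mean of at least 100 CPM, and up to 3 called members per direction and list with the smallest adjusted p. Every tested member counts for 5 lists on Integrator, PP2A and snRNA genes. Some genes that this rule names are not reported here. NimC1, PPO3, rhea, mys and He were added after their values were seen. Genes and the 51 lists were chosen with earlier results of these data known, and 4 genes that did not belong on their lists (ERK, DNA replication, fatty acid, and Srp54k, replaced by Srp54) were taken off after their values were seen. Alternatives were RLE factors, DESeq2 1.42.0, no filter, a fit of the 6 libraries, a replicate block, ribosomal entries removed first, and leaving out each library. P-values set the difference between both groups against the spread of libraries within groups, estimated over all 6 groups of the fit. The labels do not say how the cultures of a set were related.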

Additional observations from a re-analysis of the deposited data

Results flagged for a closer look

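Ribosomal RNA entries, which entered the totals and the fit but none of the counts of called genes, took 73.7% of counts on average in the 3 mts libraries (SD 0.957, lowest 73.0%, highest 74.8%). The mean share was 67.7% in the IntS4-labelled libraries (SD 2.88, 65.1 to 70.8%) and 68.8% with B-gal dsRNA (SD 2.74, 66.3 to 71.8%). This signal outside the genes compared stood above the control in each mts library. Its cause was not tested.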

How the results depend on the processing

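The split by direction held under all alternatives, and no called gene named in the text changed sign. Calls numbered 4562 with RLE factors, 4460 with DESeq2, 4664 with no filter on low counts, 4392 in a fit of the 6 libraries, 4560 with ribosomal entries removed first, and 4009 to 4300 without 1 library, against 4555. With no filter, 193 genes were at least 4-fold higher with mts dsRNA, against 118. The share of calls higher with mts dsRNA ran from 41.8 to 48.9%, against 42.8%, and the median of all genes moved by at most 0.084 (log2). Of 280 called genes named by the rule, 244 kept the call under every alternative, 34 lost it under at least 1, and 2 kept it but had no value under at least 1. With no filter 13 mitosis genes were lower, against 21, 6 glutathione transferase genes, against 10, and 8 spliceosome and SR protein genes higher, against 5. With ribosomal entries removed first 5 glycolysis genes were lower, against 8. A replicate block gave 4971 calls, which hold 99.8% of the 4555. The letters were not taken as pairs: deviations from the group mean correlated at 0.085 (A), 0.127 (B) and 0.253 (C) over 8666 genes, and at 0.115, 0.209 and 0.337 over the 6079 whose log2 CPM averaged 2 or more, and IntS4-labelled set A correlated best with mts set B (0.118 and 0.209). Median signs of the pausing and elongation, Hippo, cAMP, glutathione transferase and antioxidant lists turned under some alternatives. With 3 libraries a group, genes of a few counts have wide intervals, as for Gld and Reck, and near-identical copies limit snRNA and histone genes.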

Other observations

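Long genes and noncoding RNAs were more often lower with mts dsRNA. Of 2148 genes that span over 6233.5 bp 47.4% were lower, against 21.6% of 2148 genes that span under 1479 bp. Of 352 noncoding RNA genes 44.0% were lower and 9.09% higher. Of 1482 genes on the X chromosome 18.2% were higher, and of 74 on chromosome 4 35.1% were higher and 13.5% lower. These are shares of tested genes and were not tested against each other. Of all genes tested 30.1% were lower, and of those under 1 CPM with B-gal dsRNA 45.2%. Level in control cells, and with it the count filter, was not separated from span, gene type or chromosome, so nothing is read from these shares.

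Among factors of transcription and RNA processing, differences were small. Of 21 pausing and elongation factors 7 were lower, such as Hexim, which holds back P-TEFb (-0.70), and 4 higher, such as the histone chaperone gene Spt6 (0.57). Without mts set C 4 were lower and 2 higher. The counts of these factors lay near the 30.1% lower and 22.5% higher of all genes tested. Of 15 cleavage and polyadenylation factors 2 were higher and 1 lower, and of 23 spliceosome and SR protein genes 5 were higher, such as x16 (0.89), and 5 lower. Of 60 tested histone genes 16 were higher and 6 lower (median 0.45), but the split rests on single libraries: it was 2 and 6 without IntS4 set C, 4 and 4 without mts set A, 6 and 4 without mts set B, 16 and 3 without mts set C and 14 and 3 without IntS4 set A. Replication-dependent copies also share reads. The single-copy variant gene His2Av was lower, at 61.7, 62.4 and 65.5 CPM against 103, 104 and 101 CPM, with 138, 167 and 192 CPM in B-gal libraries.

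In small-RNA pathways, Tudor-SN, a nuclease gene, was higher with mts dsRNA at 264, 266 and 247 CPM against 129, 131 and 119.7 CPM (log2 fold change 1.03, SE 0.09, adjusted p 1.4e-08). It was 1 of 5 higher among 14 siRNA and microRNA genes, or of 3 without mts set B and of 8 with no filter on low counts. AGO1 and Ranbp21 were called lower. Ranbp21 kept its call only with a replicate block, and AGO1 lost its call without IntS4 set C and with no filter. Of 19 piRNA genes 8 were lower and none higher. The Argonaute gene piwi had 1.86, 1.27 and 1.18 CPM with mts dsRNA, 7.73, 9.20 and 7.48 CPM in the IntS4-labelled libraries and 6.48, 7.32 and 4.51 CPM with B-gal dsRNA (log2 fold change -2.48, SE 0.26, adjusted p 2.8e-07), so the mts libraries alone were low. The transcription factor gene tj had 28.8, 31.0 and 38.4 CPM, 72.1, 63.1 and 82.1 CPM and 148, 152 and 171 CPM in the same order (log2 fold change -1.15, SE 0.15, adjusted p 3.1e-06), below the control in both groups.

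Tubulin genes were split, with 3 of 8 higher and 4 lower. The isotype gene betaTub97EF had 49.4, 38.4 and 64.0 CPM against 11.8, 13.4 and 15.4 CPM (log2 fold change 1.90, SE 0.21, adjusted p 7.2e-07), and betaTub56D had 325, 315 and 325 CPM against 676, 692 and 543 CPM (log2 fold change -0.99, SE 0.13, adjusted p 4.2e-06). Of 33 aminoacyl-tRNA synthetase genes 7 were higher, such as MetRS (0.78), and 7 lower, such as AspRS (-0.72), or 4 lower without mts set B. Both synthetase counts lay below the shares of all genes tested (22.5% higher, 30.1% lower). Of 3 tested gluconeogenesis genes Pepck1 alone was called.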
